A study of Mus musculus with 32 samples.

Results

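Loss of the receptor Notch3 and expression of a mutant Notch3 were compared gene by gene in brain arteries of mice. For every gene, the change in TgNotch3R169C mice from their own controls was set against the change in Notch3-/- mice from theirs, and the difference between the 2 changes was tested. A positive difference, called higher here, means that the gene was higher in TgNotch3R169C arteries relative to control than in Notch3-/- arteries relative to control, and lower means the reverse. All 32 of 32 libraries entered 1 model, 18555 genes were tested, and 65 of them (0.350% of the genes tested) differed at an adjusted p below 0.05. Of the 65 genes, 49 (0.264%) were higher and 16 (0.0862%) were lower. They include Notch3 and 7 of 11 genes that the study presents as targets of Notch3, and the account below turns on the other 57, of which 41 were higher and 16 lower.

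The groups hold 8 mice each: Notch3-/- and Notch3+/+ at 3 months of age, and TgNotch3R169C and non-transgenic littermates (non-Tg) at 12 months. TgNotch3R169C mice carry, on a P1-derived artificial chromosome, the rat Notch3 gene with the CADASIL mutation R169C beside their own mouse Notch3. The lines had been backcrossed onto a C57BL/6 background, and TgNotch3R169C was first made on FVB/N. Whether DNA of other strains remained was not tested. Each mutant therefore differs from the other in line and in age as well as in Notch3, and neither can be told apart from the mutation in the difference between the 2 changes. Each mutant has controls of its own age, and those controls enter the difference.

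Notch3 is a receptor of arterial smooth muscle cells and pericytes. Binding of a ligand on a neighbouring cell lets proteases release its intracellular part, which enters the nucleus and acts on genes with the DNA-binding protein RBPJ. CADASIL is an inherited disease of small brain arteries in which mutations of NOTCH3 change the number of cysteines in the extracellular part of the receptor, and this part accumulates around smooth muscle cells. Loss of Notch3 removes the signal, whereas in a carrier of such a mutation the receptor is still made. The comparison asks for which genes the change from control was not the same in the 2 mutants.

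RefSeq promoter windows (250 bases before the gene's start, GRCm38.p6) were at hand for 41 of the 65 genes. They were searched on both strands for TGGGAA, the core of the sequence that RBPJ binds. The motif occurred in a window of 12 of the 41 genes, against 24.1% of the 27025 genes in the table. It was found in 6 of the 22 matched genes that were called down in Notch3-/-, in 1 of 6 called up in TgNotch3R169C alone, in 3 of 5 called in neither mutant, and in 2 of the 8 matched genes that were lower. In 5 genes the motif lay within 200 bases of the start, and these windows are shown 5′ to 3′ on the gene's strand to place the motif, in capitals, relative to the RefSeq start at the right-hand end. In Gpld1 the capitals read TTCCCA because the motif is on the other strand. It starts 23 bases before the start in Gpld1, 66 in Adamtsl2, 89 in Zfp663, 151 in Aldh18a1 and 183 in Ces5a. For Zfp663 and Ces5a the bases that follow the RefSeq start were not found in a GENCODE transcript of the gene, so that the place of their start rests on RefSeq alone. Zfp663, Ces5a and Aldh18a1 were called down in Notch3-/-, Adamtsl2 up in TgNotch3R169C, and Gpld1 in neither.
Zfp663 (chr2:165368737-165368986, minus strand): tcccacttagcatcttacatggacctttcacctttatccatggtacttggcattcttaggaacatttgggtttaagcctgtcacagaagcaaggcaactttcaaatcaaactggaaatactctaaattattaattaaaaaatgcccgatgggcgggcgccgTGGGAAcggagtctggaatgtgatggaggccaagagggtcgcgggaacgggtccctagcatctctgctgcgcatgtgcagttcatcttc
Ces5a (chr8:93535841-93536090, minus strand): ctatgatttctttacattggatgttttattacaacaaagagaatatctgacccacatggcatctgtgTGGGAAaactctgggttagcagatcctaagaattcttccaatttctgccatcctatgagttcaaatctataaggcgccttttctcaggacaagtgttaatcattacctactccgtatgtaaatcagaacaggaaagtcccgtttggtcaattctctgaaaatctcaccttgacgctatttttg
Aldh18a1 (chr19:40588464-40588713, minus strand): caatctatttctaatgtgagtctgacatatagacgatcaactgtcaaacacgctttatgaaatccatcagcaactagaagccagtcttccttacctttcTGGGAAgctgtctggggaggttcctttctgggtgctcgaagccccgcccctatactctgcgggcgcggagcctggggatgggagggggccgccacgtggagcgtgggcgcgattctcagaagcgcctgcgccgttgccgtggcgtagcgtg
Adamtsl2 (chr2:27079129-27079378, plus strand): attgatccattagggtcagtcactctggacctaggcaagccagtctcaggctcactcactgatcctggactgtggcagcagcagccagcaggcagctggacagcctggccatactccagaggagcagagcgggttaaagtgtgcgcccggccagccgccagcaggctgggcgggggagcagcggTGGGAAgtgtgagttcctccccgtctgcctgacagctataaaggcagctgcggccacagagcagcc
Gpld1 (chr13:24942902-24943151, plus strand): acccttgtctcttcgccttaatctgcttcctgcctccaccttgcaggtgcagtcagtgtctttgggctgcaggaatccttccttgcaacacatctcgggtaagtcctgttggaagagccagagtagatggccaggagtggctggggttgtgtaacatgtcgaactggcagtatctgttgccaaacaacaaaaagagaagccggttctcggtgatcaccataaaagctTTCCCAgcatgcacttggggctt

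The libraries held 20289487 to 54481934 counts. Levels are given as CPM, the number of counts for a gene scaled to a common library total and for library composition, and changes as log2 fold changes with their standard error (SE). The median SE was 0.14 for the difference between the changes and 0.1 for the change in Notch3-/-, so that a difference had to be larger than a change to reach the same p. Summed smooth muscle, endothelial and fibroblast markers were above 1000 CPM in every library. Choroid plexus markers summed to over 1000 CPM in 7 libraries (1 Notch3-/-, 2 TgNotch3R169C and 4 non-Tg), and pituitary markers in 1 Notch3+/+ library. Without the 7 choroid-rich libraries 39 genes differed, 19 higher and 20 lower, and 27 of them were among the 65. Without the pituitary-rich library the count was 61, of which 58 were among the 65.

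The 65 genes fell into few patterns, seen in the plot of one change against the other. Of the 49 that were higher, 33 were called down in Notch3-/- and not called in TgNotch3R169C (7 of them target genes), 10 were called up in TgNotch3R169C and not called in Notch3-/-, 5 were called in neither, and Notch3 itself was called in opposite directions. All 16 genes that were lower were called up in Notch3-/- and none was called in TgNotch3R169C. In the same model 174 genes (0.938%) were called between Notch3-/- and Notch3+/+, 48 up (0.259%) and 126 down (0.679%), and 21 genes (0.113%) between TgNotch3R169C and non-Tg, 18 up (0.0970%) and 3 down (0.0162%). At an unadjusted p below 0.05 the shares were 7.63% and 8.16%, and 8.62% for the difference. No gene other than Notch3 was called in opposite directions in the 2 mutants.

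**Figure D1:**
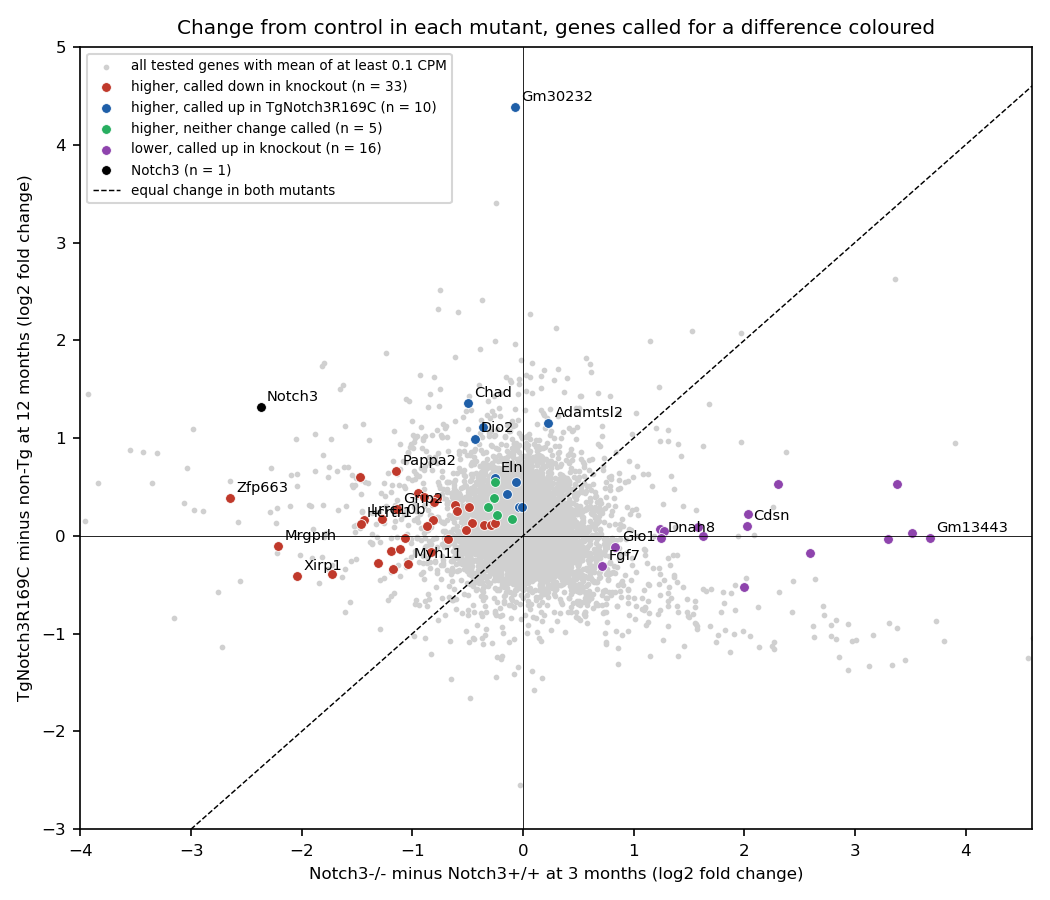
Log2 fold change of each gene in Notch3-/- from Notch3+/+ at 3 months (x axis) and in TgNotch3R169C from non-Tg at 12 months (y axis), with genes called for a difference coloured by pattern and other tested genes of at least 0.1 CPM in grey. The 33 genes called down in Notch3-/- alone lie left of 0 near the horizontal line, the 16 lower genes right of 0 near it, and the 10 genes called up in TgNotch3R169C alone lie above 0 near the vertical line.

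Notch3, the gene that both lines alter, had the smallest adjusted p of the difference. Its lowest, median and highest levels were 65.8, 82.8 and 98.1 CPM in the 8 Notch3+/+ libraries and 13.7, 16.4 and 18.5 CPM in the 8 Notch3-/- libraries. They were 60.1, 70.9 and 85.02 CPM in non-Tg and 108, 186 and 219 CPM in TgNotch3R169C, so that neither mutant overlapped its controls. The change was -2.37 in Notch3-/- and 1.31 in TgNotch3R169C, and the 2 changes differed by 3.68 ± 0.15 (log2, SE; adjusted p = 3.74e-17). The transgene is the rat gene, and how many of its reads were counted to mouse Notch3 was not tested.

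Beyond the target genes, 26 genes were called down in Notch3-/-, not called in TgNotch3R169C, and differed between the 2. Their median change was -0.92 in Notch3-/- and 0.13 in TgNotch3R169C, against -0.0025 and -0.0055 over all genes tested, and the median difference was 1.04. In 20 of the 26 the change in TgNotch3R169C was above 0. The levels of Notch3-/- and Notch3+/+ did not overlap in 15 of the 26, against 0.313% of all genes tested, and those of TgNotch3R169C and non-Tg did not overlap in 0 of the 26, against 0.140%. In 25 of the 26 the level in non-Tg controls at 12 months was below that in Notch3+/+ controls at 3 months, by a median of -0.39. Both control groups enter the tested difference, so that the choice of these genes favours this order and nothing is read from it. The genes were chosen by the same calls, which also favours the signs, medians and counts without overlap given here. Nothing is read from those either.

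The genes of this set are described by what they code for. Mrgprh, a Mas-related G protein-coupled receptor, had lowest, median and highest levels of 1.94, 2.98 and 4.58 CPM in Notch3+/+, 0.4305, 0.685 and 0.889 CPM in Notch3-/-, 1.12, 1.58 and 2.07 CPM in non-Tg and 1.03, 1.33 and 2.05 CPM in TgNotch3R169C. Its changes differed by 2.11 ± 0.26 (adjusted p = 1.05e-05). Hcrtr1, a receptor for the orexin peptides, measured 1.31, 2.04 and 2.39 CPM in Notch3+/+, 0.415, 0.695 and 1.02 in Notch3-/-, 1.02, 1.56 and 2.76 in non-Tg and 1.35, 1.79 and 2.35 in TgNotch3R169C. For both receptors every Notch3-/- library lay below every Notch3+/+ library, whereas TgNotch3R169C and non-Tg overlapped; the difference for Hcrtr1 was 1.59 ± 0.28 (adjusted p = 0.00241), and without the choroid-rich libraries it was 1.35 with an adjusted p of 0.0878. Hfe2, the co-receptor of bone morphogenetic proteins known as hemojuvelin, changed by -1.72 in Notch3-/- and by -0.39 in TgNotch3R169C (difference 1.33 ± 0.29, adjusted p = 0.0238). It was 1 of the 6 genes of this set whose change in TgNotch3R169C was below 0. Pappa2, a protease that cleaves insulin-like growth factor binding proteins, measured 3.32, 6.502 and 9.23 CPM in Notch3+/+ and 2.25, 2.85 and 3.66 CPM in Notch3-/-, and 2.04, 2.71 and 4.03 CPM in non-Tg and 2.68, 3.08 and 14.7 CPM in TgNotch3R169C. The highest of the latter is TgNotch3R169C replicate 7, without which the difference for Pappa2 was 1.26, against 1.81 with it, and was still called (adjusted p = 0.00399). It was not called without the choroid-rich libraries (adjusted p = 0.0969), with the smooth muscle covariate (adjusted p = 0.13) or by limma voom (adjusted p = 0.0646).

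Map3k7cl, a protein similar to the C-terminal part of the TAK1 kinase, had levels of 9.71, 12.1 and 19.04 CPM in Notch3+/+ and 3.98, 5.46 and 7.38 CPM in Notch3-/-. At 12 months it measured 4.48, 5.88 and 8.49 CPM in non-Tg and 5.01, 6.85 and 9.32 CPM in TgNotch3R169C, a range close to that of Notch3-/-. The changes differed by 1.44 ± 0.22 (adjusted p = 0.00031). Lrrc10b, a leucine-rich repeat protein, showed the same order, with 4.69, 7.41 and 10.8 CPM in Notch3+/+, 2.13, 2.703 and 3.65 in Notch3-/-, 2.79, 4.195 and 5.06 in non-Tg and 3.73, 4.51 and 5.66 in TgNotch3R169C. Its difference was 1.60 ± 0.21 (adjusted p = 5.38e-05). Adamts8, a secreted metalloprotease, measured 7.75, 9.86 and 11.8 CPM in Notch3+/+, 4.202, 5.33 and 8.79 in Notch3-/-, 4.81, 6.23 and 6.63 in non-Tg and 5.93, 7.48 and 10.02 in TgNotch3R169C (difference 1.17 ± 0.18, adjusted p = 0.0004). In Adamts8, as in Pappa2, Notch3-/- overlapped Notch3+/+. Dmp1, a matrix phosphoprotein, changed by -0.81 in Notch3-/- and 0.34 in TgNotch3R169C, and Cabp1, a calcium-binding protein related to calmodulin, by -0.90 and 0.40. The differences were 1.15 ± 0.24 (adjusted p = 0.0151) and 1.30 ± 0.25 (adjusted p = 0.00688), respectively.

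**Figure D2:**
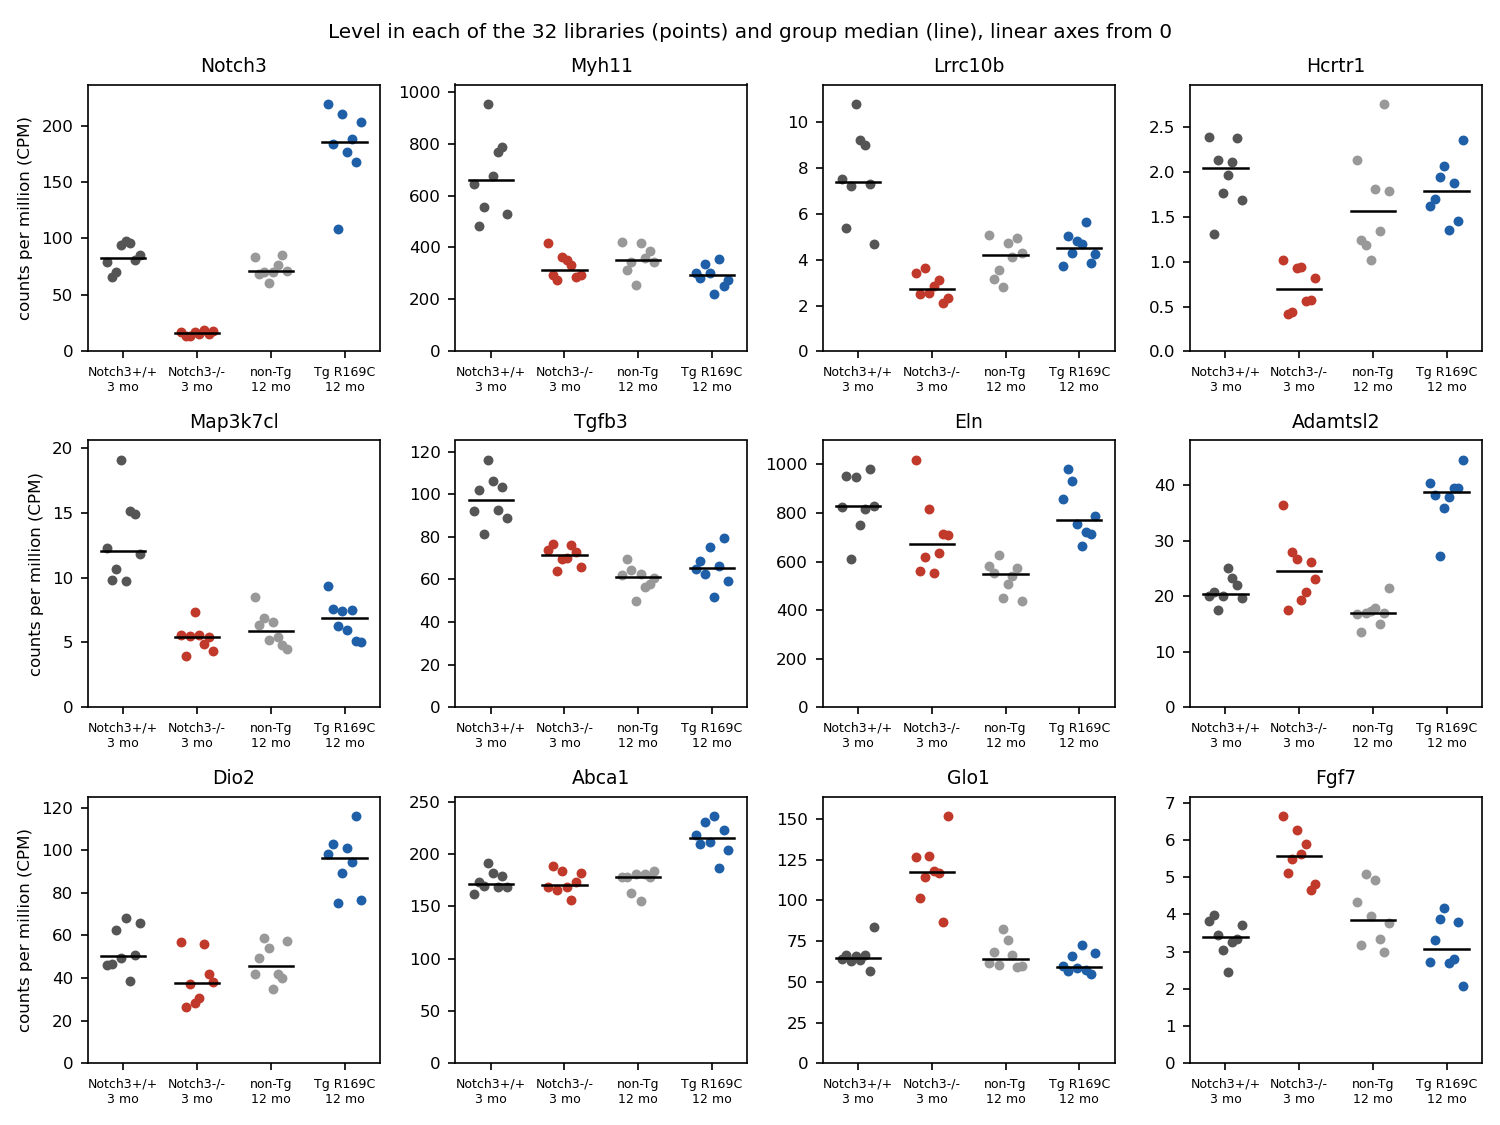
Level in CPM (y axes, linear from 0) of 12 genes in each library (points; 8 per group) with the group median (line), for Notch3+/+ and Notch3-/- at 3 months and non-Tg and TgNotch3R169C at 12 months. Myh11, Lrrc10b, Map3k7cl and Tgfb3 have lower medians in Notch3-/- and in both 12-month groups than in Notch3+/+. Eln, Adamtsl2, Dio2 and Abca1 of TgNotch3R169C do not overlap non-Tg, nor Glo1 and Fgf7 of Notch3-/- Notch3+/+.

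Myh11, the smooth muscle myosin heavy chain, measured 482, 659.6 and 951 CPM in Notch3+/+, 275, 315 and 418 CPM in Notch3-/-, 255, 351 and 422 CPM in non-Tg and 221, 293 and 354 CPM in TgNotch3R169C. Its change was -1.04 in Notch3-/- (adjusted p = 1.91e-06) and -0.29 in TgNotch3R169C (adjusted p = 0.567), and the 2 differed by 0.75 ± 0.17 (adjusted p = 0.0399). The fall of Myh11 passed the test in Notch3-/- alone, where no library overlapped Notch3+/+. Srl, which codes for sarcalumenin, a calcium-binding protein of the sarcoplasmic reticulum, changed by -1.07 in Notch3-/- and -0.02 in TgNotch3R169C. Its changes differed by 1.05 ± 0.23 (adjusted p = 0.0322). Sh3bgr, a small protein abundant in striated muscle, changed by -1.20 and -0.15 (difference 1.04 ± 0.21, adjusted p = 0.0108), and Alpk3, a kinase of muscle, by -0.62 and 0.31 (difference 0.93 ± 0.20, adjusted p = 0.0233; named after its values were seen). Cox4i2, a subunit of cytochrome c oxidase, also named after its values were seen, fell from a mean of 2.47 to 1.35 CPM in Notch3-/- and measured 2.34 CPM in non-Tg and 2.52 CPM in TgNotch3R169C (difference 0.97 ± 0.16, adjusted p = 0.00106).

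Of a list of 15 smooth muscle contractile proteins, 11 were called down in Notch3-/-, against 0.679% of all genes tested. Only Myh11 was called for the difference, against 0.350% of all genes tested. The median over the list was -0.56 in Notch3-/-, -0.20 in TgNotch3R169C and 0.36 for the difference, against 0.00061 over all genes tested. The difference was positive in 13 of the 15 and had an unadjusted p below 0.05 in 12, against 8.62% of all genes. Acta2, smooth muscle actin, had mean levels of 864 CPM in Notch3+/+, 556 in Notch3-/-, 455 in non-Tg and 384 in TgNotch3R169C (difference 0.39 ± 0.16, adjusted p = 0.482). Des, the intermediate filament desmin, went the other way, with a difference of -0.50 ± 0.15 (adjusted p = 0.197). The 9 smooth muscle markers, none of which was at 0 in a group's mean, summed to 2889 to 5133 CPM in Notch3+/+, 1956 to 2995 in Notch3-/-, 1622 to 2490.1 in non-Tg and 1364 to 2080.1 in TgNotch3R169C. Fewer smooth muscle cells and less smooth muscle RNA per cell cannot be told apart in these bulk libraries. All 9 markers were themselves called down in Notch3-/-. Their mean as a covariate therefore holds part of that change and cannot separate smooth muscle content from the mutation. With the mean of the smooth muscle markers as a covariate, 57 genes differed, 29 higher and 28 lower, and 36 of these were among the 65. The median over the contractile list, which holds all 9 markers, was then -0.023, and Myh11 stood at 0.25 (adjusted p = 0.167). Srl stood at 1.14 (adjusted p = 0.0645), Sh3bgr at 0.65 (adjusted p = 0.158) and Alpk3 at 0.61 (adjusted p = 0.201), none of them called. Hfe2, at 0.86 (adjusted p = 0.207), and Pappa2 were not called either. Hcrtr1, Adamts8, Dmp1, Cabp1 and Cox4i2 were called, with adjusted p-values of 0.0098 for Cabp1 to 0.0492 for Hcrtr1, as were the following genes. Mrgprh stood at 1.72 (adjusted p = 0.000379), Lrrc10b at 1.199 (adjusted p = 0.00125) and Map3k7cl at 1.02 (adjusted p = 0.00878). Without the choroid-rich libraries, Dmp1 (adjusted p = 0.2001), Cabp1 (adjusted p = 0.1225) and Cox4i2 (adjusted p = 0.1025) were not called. Nor were Myh11 (adjusted p = 0.143), Sh3bgr (adjusted p = 0.1355), Alpk3 (adjusted p = 0.274) and Hfe2 (adjusted p = 0.0969) in that fit.

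Tgfb3, a ligand of the TGF-beta family, was the only 1 of 18 tested genes of the TGF-beta list that was called for the difference. Its levels were 81.4, 97.4 and 116 CPM in Notch3+/+ and 63.9, 71.6 and 76.6 CPM in Notch3-/-, which did not overlap. They were 49.8, 61.4 and 69.5 CPM in non-Tg and 51.6, 65.6 and 79.5 CPM in TgNotch3R169C, which did. The changes differed by 0.59 ± 0.11 (adjusted p = 0.00304), and with the smooth muscle covariate by 0.42 (adjusted p = 0.0998). The remaining genes of the 26 included Crispld2, Mthfd2, Arhgef7, Pam and Aldh18a1, which were named after their values were seen and whose differences ran from 0.38 for Aldh18a1 to 0.85 for Mthfd2, and 2 genes of very low level, Zfp663 and Ces5a. Zfp663, a zinc finger gene with a promoter motif as shown above, measured 0.0689, 0.204 and 0.534 CPM in Notch3+/+, 0.0268, 0.028004 and 0.0635 in Notch3-/-, 0.09003, 0.206 and 0.457 in non-Tg and 0.139, 0.304 and 0.504 in TgNotch3R169C. Levels this low rest on very few counts in Notch3-/-, so no fold change is given. Ces5a, a carboxylesterase, measured 0.582, 0.9404 and 1.12 CPM in Notch3+/+, 0.111, 0.324 and 0.469 in Notch3-/-, 0.1904, 0.435 and 0.704 in non-Tg and 0.448, 0.691 and 0.9905 in TgNotch3R169C. The predicted genes Gm34829, Gm13889 and A730020M07Rik had differences of 1.39 ± 0.21, 0.78 ± 0.16 and 0.47 ± 0.11, and no role is given for them. AC138228.3, a transcript annotated only by its clone, lies 4 places before Notch3 among the tested genes of chromosome 17. It measured 4.54, 5.86 and 7.65 CPM in Notch3+/+, 1.8003, 2.68 and 3.65 in Notch3-/-, 3.45, 4.803 and 6.24 in non-Tg and 3.38, 4.47 and 5.69 in TgNotch3R169C (difference 0.98 ± 0.21, adjusted p = 0.0218). AC138228.3 was not called without the choroid-rich libraries (0.63, adjusted p = 0.315) or with the smooth muscle covariate (0.82, adjusted p = 0.147).

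A call in Notch3-/- with none in TgNotch3R169C did not make a gene differ between them. Of the 174 genes called in Notch3-/-, 124 were not called for the difference, 100 of which had an unadjusted p below 0.05. Among them were 92 genes called down, with a median change of -0.67 in Notch3-/- and -0.08 in TgNotch3R169C. For 65 of the 92 the change in TgNotch3R169C was below 0, and the difference was positive in 91, with a median of 0.55. For these genes the data neither separate the 2 mutants at this threshold nor show that they act alike.

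The second pattern, up in TgNotch3R169C and not called in Notch3-/-, held 10 genes. Levels of TgNotch3R169C and non-Tg did not overlap in 9 of the 10, all but Chad, against 0.140% of all genes tested. Their median change was 0.79 in TgNotch3R169C and -0.11 in Notch3-/-. The 10 genes were chosen by the same calls, so that nothing is read from this count or these medians. Eln, which codes for elastin, the protein of the elastic lamina, measured 436, 549 and 627 CPM in non-Tg and 664, 772 and 980.3 CPM in TgNotch3R169C, against 610.4, 828 and 979.7 CPM in Notch3+/+ and 555, 672 and 1017 CPM in Notch3-/-. It rose by 0.59 in TgNotch3R169C (adjusted p = 0.018), up to the range of the young controls, and the changes differed by 0.84 ± 0.16 (adjusted p = 0.00498). With the smooth muscle covariate the value was 0.61 (adjusted p = 0.104), and without the choroid-rich libraries 0.83 (adjusted p = 0.0926). Adamtsl2, a secreted protein that binds the microfibrils on which elastin assembles, measured 17.6, 20.4 and 25.1 CPM in Notch3+/+, 17.5, 24.6 and 36.4 in Notch3-/-, 13.7, 17 and 21.5 in non-Tg and 27.2, 38.9 and 44.5 in TgNotch3R169C. Every TgNotch3R169C library was above every non-Tg library, and the difference was 0.93 ± 0.16 (adjusted p = 0.00223); without the choroid-rich libraries it was 0.78 (adjusted p = 0.122).

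Of the 22 genes of elastic fibre assembly, only Eln and Adamtsl2 were called for the difference, 16 were positive and 7 had an unadjusted p below 0.05, with a median of 0.12. Of all 18555 genes tested, 0.350% were called, 9317 were positive and 8.62% had an unadjusted p below 0.05. Mfap4, a microfibril protein, had a difference of 0.79 ± 0.20 (adjusted p = 0.0879), and Lox, which cross-links elastin, of 0.55 ± 0.13 (adjusted p = 0.0608). Chad, a matrix protein of cartilage, measured 2.84, 4.12 and 5.92 CPM in Notch3+/+, 1.702, 2.896 and 4.203 in Notch3-/-, 2.703, 3.71 and 6.06 in non-Tg and 5.33, 6.95 and 28.5 in TgNotch3R169C. The difference was 1.86 ± 0.40 (adjusted p = 0.0233), and 1.44 without TgNotch3R169C replicate 7, the highest library. Chad was not called by limma voom, with the smooth muscle covariate (1.94, adjusted p = 0.0645) or without the choroid-rich libraries (2.02, adjusted p = 0.104). Bgn, the proteoglycan biglycan, was called up in TgNotch3R169C (change 0.35, adjusted p = 0.0253) but not for the difference (0.40 ± 0.10, adjusted p = 0.0756). In all, 10 of the 21 genes called in TgNotch3R169C were not called for the difference, 9 of them with an unadjusted p below 0.05.

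Dio2 activates thyroid hormone by turning thyroxine into triiodothyronine. It measured 38.5, 50.2 and 68.1 CPM in Notch3+/+, 26.6, 37.9 and 56.9 in Notch3-/-, 35.1, 45.6 and 58.9 in non-Tg and 75.5, 96.3 and 116 in TgNotch3R169C. All 8 TgNotch3R169C libraries lay above the other 24, the change was 0.99 in TgNotch3R169C (adjusted p = 0.000849) and -0.44 in Notch3-/- (adjusted p = 0.266), and the difference was 1.43 ± 0.21 (adjusted p = 0.000229). It was called without the choroid-rich libraries (1.37, adjusted p = 0.024) and with the smooth muscle covariate (1.55, adjusted p = 0.000684). Of the other 7 genes of thyroid hormone activation and response, none was called by edgeR, limma voom or DESeq2, and 0 had an unadjusted p below 0.05. Chp2, a calcineurin-like protein named after its values were seen, measured 13.4, 14.8 and 16.3 CPM in Notch3+/+, 11.6, 13.5 and 17.8 in Notch3-/-, 12.5, 15.5 and 16.7 in non-Tg and 17.6, 21.7 and 27.2 in TgNotch3R169C (difference 0.61 ± 0.12, adjusted p = 0.00886). Chp2 was not called without the choroid-rich libraries (adjusted p = 0.0565) or with the smooth muscle covariate (adjusted p = 0.115).

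Genes of cholesterol synthesis had the same sign throughout. All 22 tested genes of sterol and fatty acid synthesis had a positive difference, 20 had an unadjusted p below 0.05 and 4 were called, Sqle and Sc5d among them, with a median of 0.35. Of all 18555 genes tested, 9317 were positive, 8.62% had an unadjusted p below 0.05 and 0.350% were called. The median change of the list was 0.28 in TgNotch3R169C and -0.07 in Notch3-/-. In TgNotch3R169C 5 of its genes were called up, against 0.0970% of all genes tested. Sqle, squalene epoxidase, measured 46.4, 49.9 and 53.3 CPM in non-Tg and 55.7, 66.7 and 81.5 CPM in TgNotch3R169C, without overlap, and 43.9, 55.7 and 70.6 CPM in Notch3+/+ and 35.5, 48.6 and 62.2 CPM in Notch3-/- (difference 0.58 ± 0.13, adjusted p = 0.0288). Every TgNotch3R169C library was thus above every non-Tg library, whereas Notch3-/- and Notch3+/+ overlapped. Sc5d, a desaturase of the last steps to cholesterol, measured 79.3, 85.3 and 93.9 CPM in Notch3+/+, 72.97, 79.6 and 89.4 in Notch3-/-, 74.1, 79.2 and 82.99 in non-Tg and 83.2, 88.3 and 95.9 in TgNotch3R169C. The changes of Sc5d differed by 0.27 ± 0.054 (adjusted p = 0.0106). The genes of this list were measured in the same libraries and are not independent of each other. The list was chosen with earlier results of these data known.

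The mean log2 CPM over the 22 genes had lowest, median and highest values of 5.60, 5.67 and 5.99 in Notch3+/+, 5.44, 5.62 and 5.84 in Notch3-/-, 5.64, 5.71 and 5.81 in non-Tg and 5.89, 6.004 and 6.19 in TgNotch3R169C. The TgNotch3R169C libraries lay above all non-Tg libraries. All 22 were positive without the choroid-rich libraries too, with a median of 0.30 and 1 gene called. Sqle (adjusted p = 0.108) and Sc5d (adjusted p = 0.13) were not called in that fit, and Sqle was not called without the pituitary-rich library either. Astrocyte markers, of which 7 of 7 were measured, summed to 1701 to 2357 CPM in non-Tg and 2038 to 2764 CPM in TgNotch3R169C, neuron markers, 8 of 8 measured, to 203 to 702 CPM and 329 to 985 CPM, and oligodendrocyte markers, 7 of 7 measured, to 1349.9 to 1968 CPM and 1028 to 2286 CPM. With the oligodendrocyte markers as a covariate the median of the list was 0.33 with 2 genes called, and with the neuron markers 0.36 with 4 called. Abca1, which exports cholesterol from cells, was also up in TgNotch3R169C alone, with 162, 172 and 191 CPM in Notch3+/+, 156, 171 and 188 in Notch3-/-, 155, 178 and 184 in non-Tg and 187, 215 and 236 in TgNotch3R169C (difference 0.31 ± 0.064, adjusted p = 0.0158). Abca1 was not called for the difference without the choroid-rich libraries (0.29, adjusted p = 0.0926) or with the oligodendrocyte markers as a covariate. With all libraries it was the only called gene among 11 of lipid droplets and cholesterol efflux. Plin4, a lipid droplet protein, was called down in both mutants (-0.44 in Notch3-/- and -0.47 in TgNotch3R169C), and its difference was -0.032 ± 0.14, with a 95% interval of -0.31 to 0.25.

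The called gene with the largest difference was Gm30232, annotated as a transcribed pseudogene. It measured 0.0312, 0.135 and 0.35003 CPM in Notch3+/+, 0.0625, 0.176 and 0.247 in Notch3-/-, 0.0446, 0.185 and 0.387 in non-Tg and 1.61, 4.25 and 4.94 in TgNotch3R169C, and the difference was 4.46 ± 0.54 (adjusted p = 1.05e-05). Counts of a pseudogene may include reads of related genes, so the value is uncertain. No run of 30 bases of its 2 annotated transcripts was shared with the mouse coding sequence of Notch3 on either strand. The rat sequence of the transgene, coding or not, was not searched. Whether reads of the transgene were counted to Gm30232 was therefore not tested. Replicate 3 was the lowest of the TgNotch3R169C libraries for both Gm30232 (1.61 CPM, the others 3.62 to 4.94 CPM) and Notch3 (108 CPM, the others 168 to 219 CPM).

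Another 5 genes differed although neither change was called. They are Cpxm2, a protein of the carboxypeptidase family, Parm1, Nxpe2, Gpld1, a phospholipase that releases proteins from their membrane anchor, and Sc5d, and all but Sc5d were named after their values were seen. Each was below control in Notch3-/- and above it in TgNotch3R169C, by a median of -0.26 and 0.29. A called difference with neither change called favours opposite signs by choice, so that nothing is read from the signs. Cpxm2 measured 55.5, 78.2 and 91.4 CPM in Notch3+/+, 42.4, 66.3 and 88.98 in Notch3-/-, 68.01, 79.96 and 93.3 in non-Tg and 89.4, 116 and 155 in TgNotch3R169C (difference 0.81 ± 0.18, adjusted p = 0.0238). Cpxm2 was not called without the choroid-rich libraries (adjusted p = 0.0925) or with the smooth muscle covariate (adjusted p = 0.121).

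**Figure D3:**
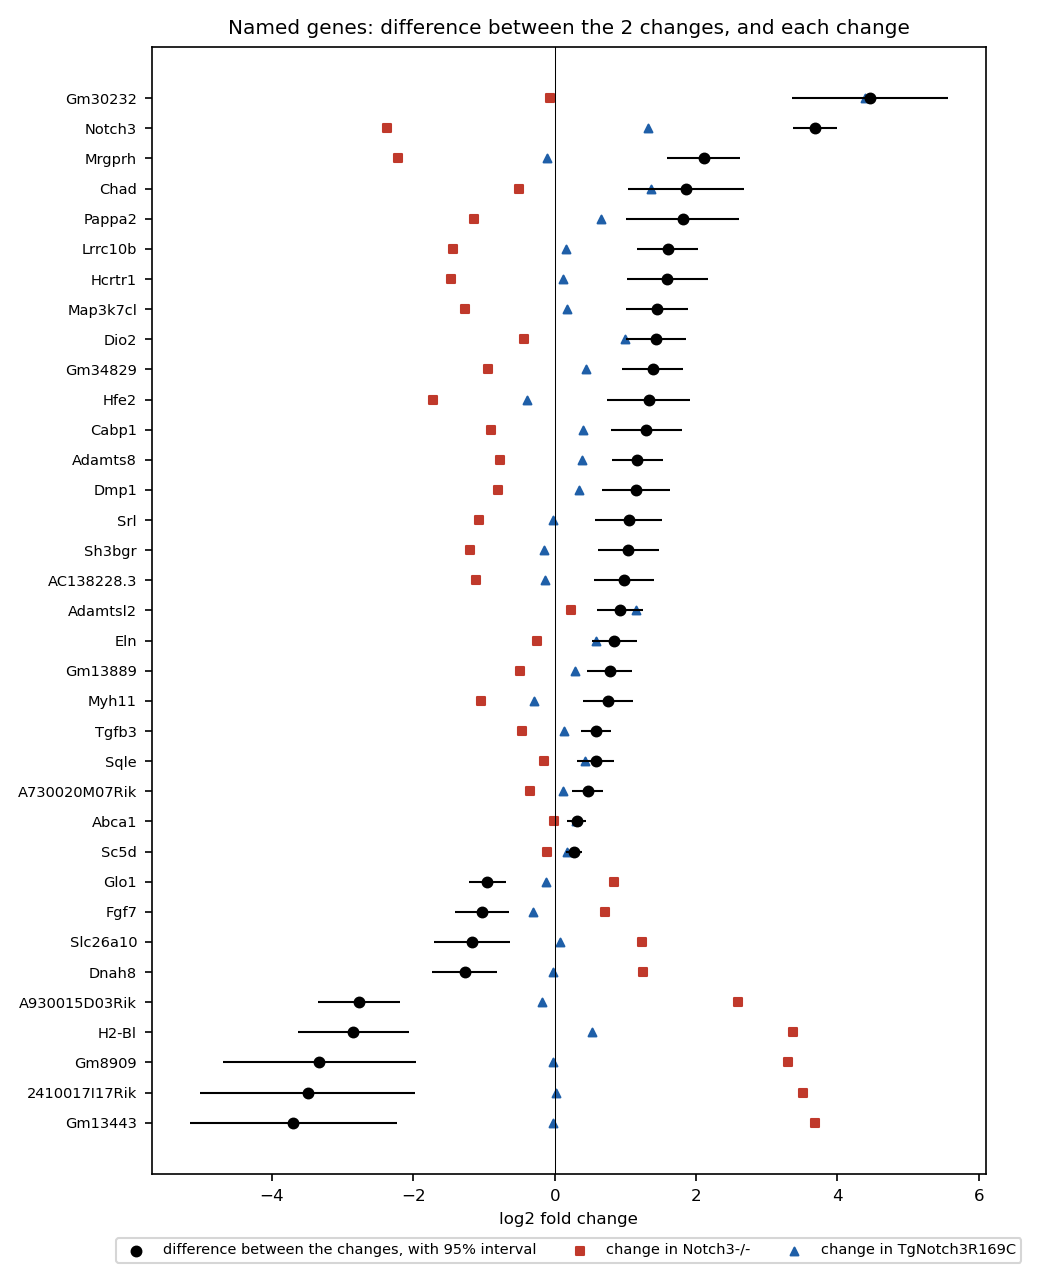
Difference between the 2 changes (black points, with 95% interval) and the change in each mutant (red squares, Notch3-/-; blue triangles, TgNotch3R169C), as log2 fold changes on the x axis, for genes named by the fixed rule. For most of the lower genes and for Mrgprh, Lrrc10b and Hcrtr1 the red squares are far from 0 and the blue triangles near it, and for Gm30232, Adamtsl2 and Dio2 the reverse holds.

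The third pattern was that of the 16 genes that were lower, all of them up in Notch3-/- alone. Of these, 13 are on chromosome 17, which carries Notch3, and 11 are predicted transcripts or genes of the H2 family, the major histocompatibility genes of the mouse. Of 902 genes tested on chromosome 17, 16 (1.77%) were called in either direction, against 0.350% of all 18555 genes tested. The 3 of these that were higher are Notch3, Mrgprh and AC138228.3. Glo1, glyoxalase, an enzyme that removes methylglyoxal, measured 56.4, 64.7 and 83.5 CPM in Notch3+/+, 86.8, 118 and 152 in Notch3-/-, 59.3, 63.9 and 82.2 in non-Tg and 54.96, 58.9 and 72.3 in TgNotch3R169C. Every Notch3-/- library was above every Notch3+/+ library, and the changes differed by -0.95 ± 0.13 (adjusted p = 5.05e-05). Dnah8, a dynein heavy chain of cilia, is the next tested gene on the chromosome. It measured 4.402, 6.36 and 12.9 CPM in Notch3+/+, 12.3, 16.5 and 20.4 in Notch3-/-, 5.12, 6.13 and 7.23 in non-Tg and 4.28, 5.95 and 7.998 in TgNotch3R169C (difference -1.28 ± 0.22, adjusted p = 0.00238). The Notch3+/+ value of 12.9 CPM, inside the Notch3-/- range, is replicate 8, which was also the highest Notch3+/+ library for Glo1, at 83.5 CPM against 56.4 to 66.6 CPM in the others.

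In a nearby transcript, AC165951.1, the same library stood apart. The transcript was called up in Notch3-/- but not for the difference, and was named after its values were seen. It measured 7.88, 16.1 and 20.4 CPM (lowest, median and highest) in Notch3-/- and 0, 0 and 8.18 CPM in Notch3+/+, where replicate 8 holds the 8.18 CPM and the other 7 libraries at most 0.0875 CPM. Non-Tg and TgNotch3R169C reached at most 0.0482 and 0.0707 CPM. With both 12-month groups at or near 0 it gives no usable difference between the changes. What sets replicate 8 apart was not tested. Notch3 in replicate 8 lay in the range of the other Notch3+/+ libraries. Without this library the difference was -1.47 for Dnah8 and -1.01 for Glo1, both called. On the other side of Glo1, the transcript AC165962.1 measured 6.85, 8.51 and 10.6 CPM in Notch3+/+ and 10.2, 12.8 and 16.3 CPM in Notch3-/-, and 5.88, 7.97 and 10.4 CPM in non-Tg and 6.33, 7.95 and 8.69 CPM in TgNotch3R169C. It was called up in Notch3-/- (0.58, adjusted p = 0.00107), and its difference was -0.59 ± 0.14 (adjusted p = 0.0642). Btbd9, the next gene, had a difference of -0.099 ± 0.099 (adjusted p = 0.815). AC165962.1 and Btbd9 were also named after their values were seen.

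**Figure D4:**
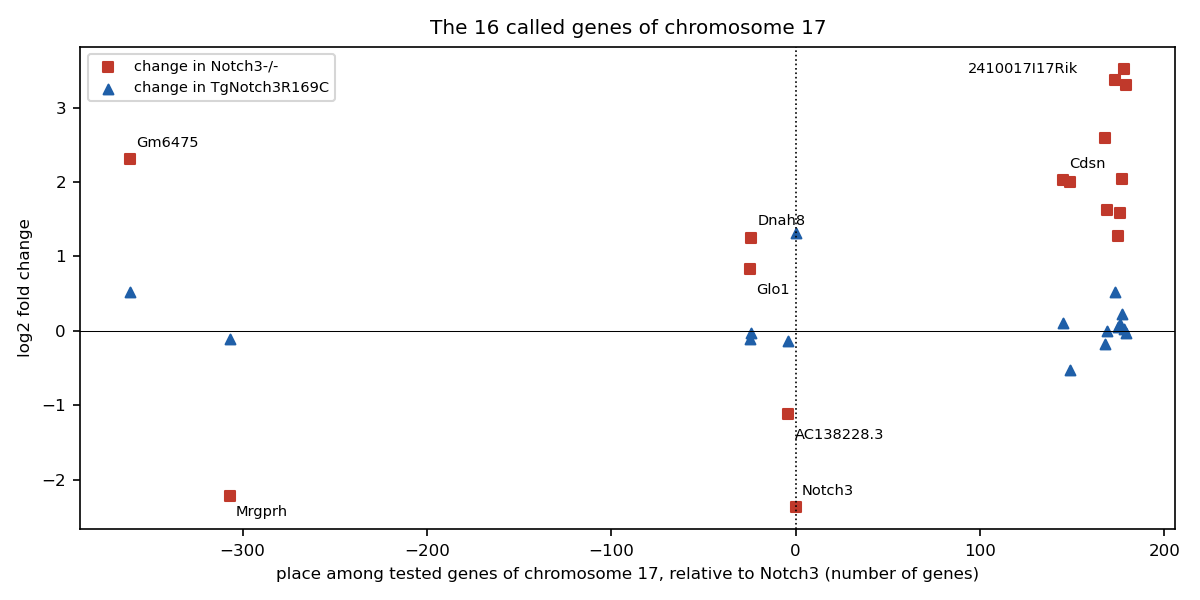
Log2 fold change in Notch3-/- (red squares) and TgNotch3R169C (blue triangles) of the 16 called genes of chromosome 17 (y axis) by their place among the tested genes of the chromosome relative to Notch3 (x axis, number of genes). A group of 10 genes up in Notch3-/- lies on 1 side of Notch3 and Glo1 and Dnah8 close to it on the other, and Notch3 alone is far from 0 in TgNotch3R169C.

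On the other side of Notch3 lay a run of 10 lower genes. It holds Cdsn, corneodesmosin, Gm20442, A930015D03Rik, H2-T24, H2-Bl, H2-T10, Gm19684, Gm10499, 2410017I17Rik and Gm8909. A930015D03Rik measured 0.482, 0.768 and 0.849 CPM in Notch3+/+, 3.06, 4.57 and 5.28 in Notch3-/-, 0.5803, 0.891 and 1.23 in non-Tg and 0.286, 0.824 and 1.2997 in TgNotch3R169C, a difference of -2.77 ± 0.29 (adjusted p = 6.35e-07). H2-Bl, a class I histocompatibility gene, measured 0.0625, 0.156 and 0.378 CPM in Notch3+/+, 0.908, 1.85 and 2.18 in Notch3-/-, 0.109, 0.2105 and 0.456 in non-Tg and 0.228, 0.324 and 0.573 in TgNotch3R169C (difference -2.85 ± 0.38, adjusted p = 5.88e-05). H2-T24, the most abundant of the run and named after its values were seen, measured 27.2, 33.5 and 62.2 CPM in Notch3-/- and 9.74, 12.8 and 14.1 CPM in Notch3+/+. Genes of the H2 family resemble each other closely, so that their counts are uncertain, and for Gm8909 and 2410017I17Rik, with differences of -3.33 ± 0.67 and -3.49 ± 0.74, some control libraries were at 0. Cdsn stood at -1.92 ± 0.44 (adjusted p = 0.0391). Gm6475, a predicted gene at the start of the chromosome, was the only lower gene of chromosome 17 outside these regions (-1.78 ± 0.39). With chromosomes 17, X and Y left out, 47 genes differed, 44 higher and 3 lower.

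The 3 lower genes elsewhere are Fgf7, Slc26a10 and Gm13443. Fgf7, a growth factor that fibroblasts and smooth muscle cells release and that acts on epithelia, measured 2.44, 3.398 and 3.98 CPM in Notch3+/+, 4.65, 5.56 and 6.63 in Notch3-/-, 2.998, 3.86 and 5.09 in non-Tg and 2.08, 3.06 and 4.16 in TgNotch3R169C. All Notch3-/- libraries were above all Notch3+/+ libraries, and the difference was -1.03 ± 0.19 (adjusted p = 0.00304). Slc26a10, of a family of anion exchangers, measured 1.25, 1.99 and 2.35 CPM in Notch3+/+, 3.24, 4.62 and 5.75 in Notch3-/-, 2.55, 5.68 and 7.18 in non-Tg and 3.89, 5.13 and 8.71 in TgNotch3R169C. Its 12-month groups thus resembled Notch3-/- rather than Notch3+/+ in level, and the difference was -1.17 ± 0.26 (adjusted p = 0.0294). Gm13443, a predicted transcript of chromosome 2, measured 0.0668, 0.126 and 1.37 CPM in Notch3+/+ and 1.9004, 3.73 and 4.81 CPM in Notch3-/-, against 0.0482, 0.123 and 0.2401 CPM in non-Tg and 0.0279, 0.139 and 0.256 CPM in TgNotch3R169C. The Notch3+/+ library at 1.37 CPM is again replicate 8.

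Of 23 other genes of the Notch pathway, 0 were called by edgeR, limma voom or DESeq2. An unadjusted p below 0.05 was found for 4, against 8.62% of all genes tested, and the median difference was 0.0099. Heyl, a Notch-responsive transcription factor of mural cells, had mean levels of 60.3 CPM in Notch3+/+, 55.3 in Notch3-/-, 48.4 in non-Tg and 59.9 in TgNotch3R169C, and a difference of 0.43 ± 0.16 (adjusted p = 0.406). Nrarp, which is induced by Notch and limits it, stood at 0.58 ± 0.32 (adjusted p = 0.618), Hey2 at 0.50 ± 0.23 (adjusted p = 0.555) and the ligand Jag1 at 0.057 ± 0.14 (adjusted p = 0.937). The 11 target genes were all called down in Notch3-/- here. All 11 had a positive difference, which shares that fall and is no separate evidence, and their median was 1.01.

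**Figure D5:**
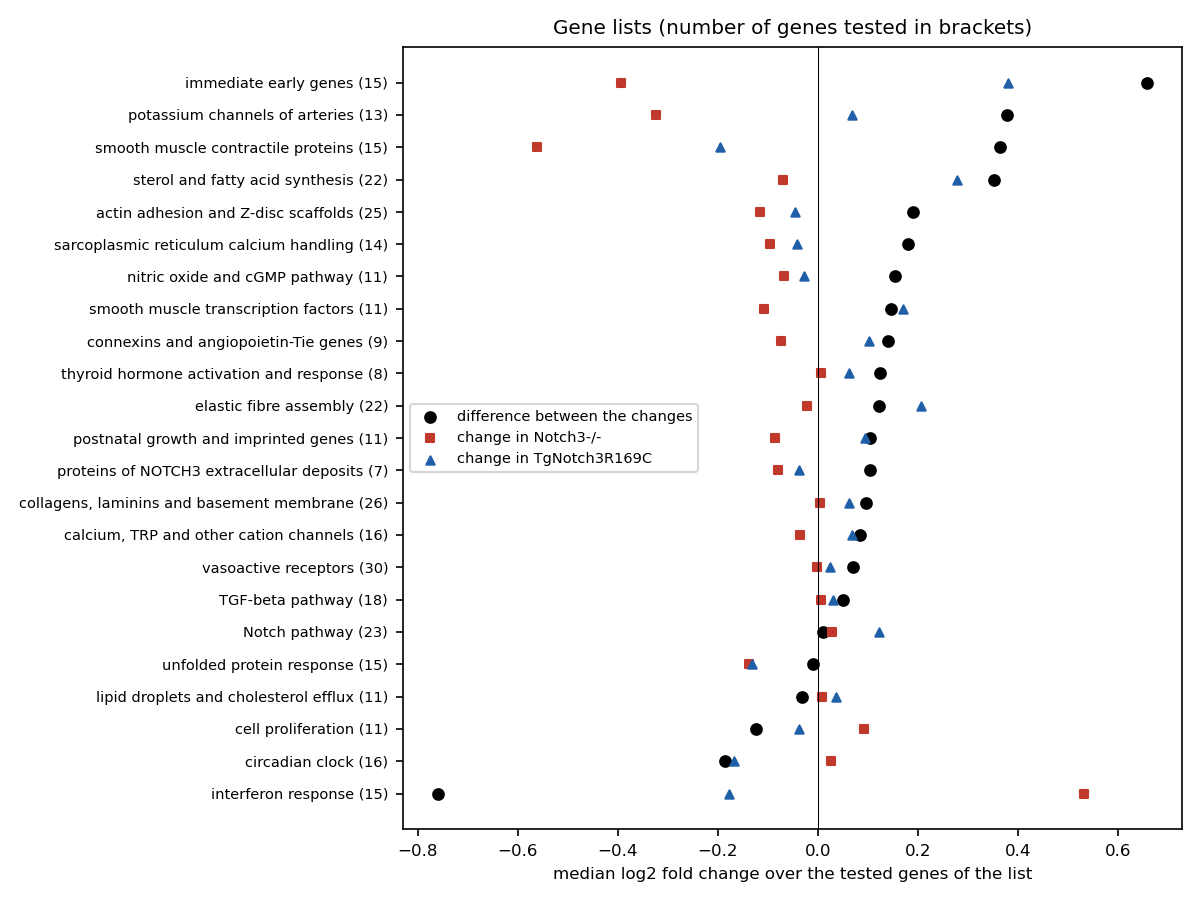
Median log2 fold change (x axis) over the tested genes of each of 23 gene lists, for the difference between the changes (black circles), the change in Notch3-/- (red squares) and the change in TgNotch3R169C (blue triangles). The difference lies furthest below 0 for the interferon response and furthest above 0 for immediate early genes, and for sterol and fatty acid synthesis it follows the change in TgNotch3R169C.

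The lists differed in which change made up the difference, as the plot of list medians shows. Over all genes tested, 8.62% had an unadjusted p below 0.05 for the difference. Of 15 genes of the unfolded protein response, 0 were called by edgeR, limma voom or DESeq2 and 0 had an unadjusted p below 0.05, and the median change was -0.14 in Notch3-/- and -0.13 in TgNotch3R169C. The median difference of this list depended on the libraries. It was -0.0092 with all libraries and 0.46 without the choroid-rich ones, where again 0 were called. Of 13 potassium channels of arteries, 0 were called by edgeR or limma voom and 1 by DESeq2, 5 had an unadjusted p below 0.05, and the median difference was 0.38. Kcnj8, a subunit of the ATP-sensitive potassium channel, was called up in Notch3-/- (0.46, adjusted p = 0.0342), with a change of -0.18 in TgNotch3R169C and a difference of -0.64 ± 0.16 (adjusted p = 0.06). Kcnmb1, the beta subunit of the large-conductance potassium channel of smooth muscle, was called down in Notch3-/- (-0.59, adjusted p = 0.0181), with a difference of 0.37 ± 0.19 (adjusted p = 0.603). Among 26 genes of collagens, laminins and basement membrane 0 were called by edgeR or limma voom and 1 by DESeq2, with 5 at an unadjusted p below 0.05 and a median of 0.097. Among 30 vasoactive receptors 0 were called by edgeR, limma voom or DESeq2, with 5 at an unadjusted p below 0.05 and a median of 0.069.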

How the data were processed

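RNA of dissected mouse brain arteries was measured by stranded poly(A) RNA-seq in 32 libraries, 1 mouse each, 8 per group. Per the labels and the study's methods, the authors trimmed reads (cutadapt 1.10), aligned them with STAR 2.5.3a (Bowtie2 2.2.8 is also named) and counted them per gene with HTSeq 0.6.1p1. The processing notes name the build mm39. The deposited values are raw counts per gene, with no normalization.

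Counts of all 32 libraries were fitted in 1 model with 4 group means by edgeR 4.0.16 (R 4.3.3, limma 3.58.1), after TMM scaling and its default filter on low counts, and contrasts were tested by the quasi-likelihood test with Benjamini-Hochberg adjustment over 18555 genes (threshold 0.05). Adjusted p-values come from this test and fit, except where limma voom, a covariate or libraries left out are named beside them. The fit and its calls were tested on simulated data. DESeq2 1.42.0, limma voom, other scalings, filters, covariates and libraries left out are alternatives. CPM are TMM-scaled. The SE is the size of the log2 fold change divided by the square root of its F statistic. Depth was 20289487 to 54481934 counts.

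Groups were taken from the labels. No 2 libraries of a group agreed within counting noise. Genes named by a fixed rule are Notch3, up to 15 called genes with the largest difference in each direction at 1 CPM or more, called members of the gene lists, and up to 5 predicted or H2 genes in each direction. A few genes that the rule names are not reported here. Members, rule and lists were chosen with earlier results of these data known. The annotation at hand is of build GRCm38, so no coordinates of counted genes are given, and the order of genes is that of GRCm38.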

Additional observations from a re-analysis of the deposited data

Results flagged for a closer look

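The difference between the 2 changes, tested as an interaction, passed the threshold for 65 genes, which the report describes.

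In 16 of 148 groups of 8 libraries (10.8%, over the 37 genes named by the rule, where chance gives about 1 in 20), 1 library stood apart from the other 7 by Dixon's test. The same library recurred for several genes. Replicate 8 of Notch3+/+ was highest for Glo1 at 83.5 CPM (the others 56.4 to 66.6), Dnah8 at 12.9 CPM (the others 4.402 to 7.23) and Gm13443 at 1.37 CPM (the others 0.0668 to 0.172), which are on chromosomes 17 and 2. Replicate 3 of TgNotch3R169C was lowest for Notch3 at 108 CPM (the others 168 to 219) and for Gm30232 at 1.61 CPM (the others 3.62 to 4.94). Replicate 7 of TgNotch3R169C was highest for Chad at 28.5 CPM (the others 5.33 to 14.3) and Pappa2 at 14.7 CPM (the others 2.68 to 3.72), and without it the differences were 1.44 and 1.26.

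The other libraries that stood apart concern 1 gene each, other than H2-Bl and Cabp1. Cabp1 measured 44.6 CPM in Notch3+/+ replicate 3 (the others 16.4 to 21.9) and 18.5 CPM in Notch3-/- replicate 6 (the others 10.3 to 12.8). Sh3bgr measured 18.1 CPM in Notch3+/+ replicate 4 (the others 8.28 to 12.8), and Sqle 81.5 CPM in TgNotch3R169C replicate 2 (the others 55.7 to 67.9). Slc26a10 measured 2.55 CPM in non-Tg replicate 4 (the others 5.22 to 7.18), and A930015D03Rik 0.482 CPM in Notch3+/+ replicate 7 (the others 0.675 to 0.849). H2-Bl measured 0.378 CPM in Notch3+/+ replicate 3 (the others 0.0625 to 0.185), 0.908 CPM in Notch3-/- replicate 7 (the others 1.62 to 2.18) and 0.573 CPM in TgNotch3R169C replicate 5 (the others 0.228 to 0.376).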

How the results depend on the processing

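The count of genes whose 2 changes differed (65) moved by over 1.5 times with DESeq2 (153, of which 102 higher, and all 65 among them), at an adjusted p below 0.01 (34) and 0.1 (115), against a fold change of 1.2 (33), without the choroid-rich libraries (39), and in replicates 1 to 4 (9) or 5 to 8 (3). In every group replicates 1 to 4 had low Xist and high Ddx3y, and replicates 5 to 8 the reverse. The labels do not give sex, but by these genes the split is one of males and females. The paper places the transgene on the X chromosome. For Notch3-/- against Notch3+/+ (174) the counts that moved so far were 274 with DESeq2, 87 at 0.01, 69 against a fold change of 1.2, 104 without chromosomes 17, X and Y, 115 in a fit of the 2 groups alone, 60 with the smooth muscle covariate (50 up, 10 down), 98 with the oligodendrocyte covariate, and 26 and 37 in replicates 1 to 4 and 5 to 8. For TgNotch3R169C against non-Tg (21) they were 66 with DESeq2, 10 at 0.01, 36 at 0.1, 6 against a fold change of 1.2, 10 without the choroid-rich libraries, and 7 and 5 in replicates 1 to 4 and 5 to 8. The cause was not tested beyond the change in libraries or threshold. Leaving out 1 library gave 53 to 94, 118 to 177 and 11 to 25 genes, where the last count, 21 with all libraries, was 11 without TgNotch3R169C replicate 2 or non-Tg replicate 4, 12 without non-Tg replicate 5 and 13 without TgNotch3R169C replicate 7. Of the 65 genes, 75.4% were higher. Of the 57 genes called with the smooth muscle covariate, 50.9% were higher. At 10 or more counts in every library 57 genes were called, 87.7% of them higher. The replicate numbers did not pair the mice. Over 48 same-numbered pairs of libraries from 2 groups the median correlation of deviations from the group mean was 0.033, with 20 above 0.1, and in 5 of the 48 a library correlated best with its own number. A replicate block gave 63 genes (54 of them among the 65), 165 and 16. Of the 65 genes, 47 were called in all 32 fits without 1 library, and no called gene changed direction under any alternative. Myh11 was called in 12 of these 32 fits, A730020M07Rik in 13 and Cdsn in 15. The SE of the difference, about 1.4 times that of either change, limits small differences.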

Other observations

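The interferon response list held 15 genes, and the difference was below 0 in all 15, with a median of -0.76. By edgeR and limma voom 0 were called, by DESeq2 2, and all 15 had an unadjusted p below 0.05, against 8.62% of all genes tested. In Notch3-/- the median change was 0.53, and Oas1a, Irf7 and Ifit1 were called up, against 0.259% of all genes tested. In TgNotch3R169C it was -0.18. Irf7, the transcription factor that amplifies the response, had mean levels of 31.2 CPM in Notch3+/+, 52.9 in Notch3-/-, 48.5 in non-Tg and 46.7 in TgNotch3R169C (difference -0.81 ± 0.25, adjusted p = 0.216 by edgeR). Ifit1, an RNA-binding antiviral protein, had a difference of -1.15 ± 0.27 (adjusted p = 0.0533). The mean log2 CPM over the list had lowest, median and highest values of 5.19, 5.30 and 5.56 in Notch3+/+, 5.48, 5.82 and 6.45 in Notch3-/-, 5.30, 5.75 and 6.30 in non-Tg and 5.30, 5.72 and 6.09 in TgNotch3R169C. Notch3-/- and both 12-month groups thus overlapped, and Notch3+/+ was the lowest group. Without the choroid-rich libraries the median was -0.77 and 2 genes were called.

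Immediate early genes, which cells transcribe within minutes of a stimulus and which handling of tissue is known to induce, had a positive difference in 15 of 15, with a median of 0.66. Of all 18555 genes tested, 9317 were positive. None of the 15 was called by edgeR, limma voom or DESeq2, and 10 had an unadjusted p below 0.05, against 8.62% of all genes. Fos measured a mean of 17.6 CPM in Notch3+/+, 11.5 in Notch3-/-, 15.6 in non-Tg and 19.3 in TgNotch3R169C (difference 0.93 ± 0.44, adjusted p = 0.559). The median was 0.44 without the pituitary-rich library. Of 16 circadian clock genes, 0 were called by edgeR, limma voom or DESeq2 and 0 had an unadjusted p below 0.05, with a median of -0.19.

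Of the remaining lists, smooth muscle transcription factors, scaffolds of actin adhesions and the Z-disc, calcium handling of the sarcoplasmic reticulum, cation channels, the nitric oxide pathway, deposit proteins, connexin and angiopoietin genes, growth and imprinted genes and cell proliferation, none held a gene called by edgeR. Each held 0 or 1 gene called by limma voom and 0 to 2 by DESeq2, and their medians ran from -0.12 for cell proliferation to 0.19 for actin adhesion and Z-disc scaffolds. Of the 25 scaffold genes tested, 10 had an unadjusted p below 0.05, against 8.62% of all genes tested. Their difference was positive in 20, and 6 were called down in Notch3-/-, against 0.679% of all genes tested. The other lists, of 7 to 16 tested genes, held 0 to 3 at an unadjusted p below 0.05.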
